A study of Mus musculus with 8 samples.

Results

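The ovaries of 8 female Lethal Yellow (LY) mice, each hybridised to an array of its own, were divided into 2 sets that did not follow drug treatment. The first set held mice 1 and 4 of the vehicle group and mice 1 and 4 of the pioglitazone group. The second held mice 2 and 3 of both groups, so that all 8 of 8 arrays were used, 4 in each set, with 2 mice of each treatment on either side. The numbers are those of the sample titles, and a number shared by a vehicle and a pioglitazone mouse names different animals. The sets were seen in the arrays themselves, as the main axis of variance, and were chosen partly because their order held in both treatment groups. Each difference between them is therefore described by its size and its standard error (SE), with no p-value.

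The study asked how the ovary responds to pioglitazone, a drug that activates the nuclear receptor PPARγ and improves insulin sensitivity. All 8 mice were heterozygous LY females (C57BL/6J Ay/a), in which ectopic agouti expression causes obesity and hyperinsulinaemia with age. From 120 to 180 days of age, for 60 days, 4 received 0.1 mg pioglitazone a day in DMSO by gavage and 4 received DMSO alone. That dose is the one in the design text, and the methods of the study give a lower one. No sample was pooled, and the stage of the oestrous cycle at collection is not given in the sources used here. Expression was measured on CodeLink Whole Mouse Genome arrays and is given in relative intensity units, in which 1 is the median probe of an array and 0.2 is the limit of sensitivity that the study used. What the replicate number stands for is not given either, so that a set and any handling shared by mice of the same number cannot be told apart.

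In the mouse ovary, theca cells around the growing follicle make androgens, which granulosa cells convert to oestrogens. After ovulation the remaining follicle cells form the corpus luteum, which makes progesterone from cholesterol and later regresses under prostaglandin F2α. Rodent ovaries hold corpora lutea of several cycles, and the balance of follicles and corpora lutea changes with the oestrous cycle, pregnancy and anovulation. Fewer cells of a type and less RNA per cell cannot be told apart in whole ovaries.

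On the first principal component, which held 39.1% of the variance of 30776 probes, the 4 mice of the first set scored -71.3 (pioglitazone mouse 1), -45.3 (vehicle mouse 1), -23.5 (pioglitazone mouse 4) and -7.4 (vehicle mouse 4). The 4 mice of the second set scored 17.0 (pioglitazone mouse 2), 29.1 (vehicle mouse 2), 44.2 (pioglitazone mouse 3) and 57.3 (vehicle mouse 3). The mice closest to the boundary were vehicle mouse 4 on the inside of the first set and pioglitazone mouse 2 on the other side. The scores ran as a gradient, with no wider step at the boundary than between pioglitazone mouse 1 and vehicle mouse 1. The sets are therefore a division of this axis and not separate clusters. The second component held 21.6% and set vehicle mouse 3 apart from the other 7 arrays, at -67.1. Summed over probes, the sets accounted for 31.8% of the variance, treatment for 12.6% and the interaction of set and treatment for 12.5%. The sets were chosen along the main axis of variance, so a large share for them was given in advance.

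**Figure D1:**
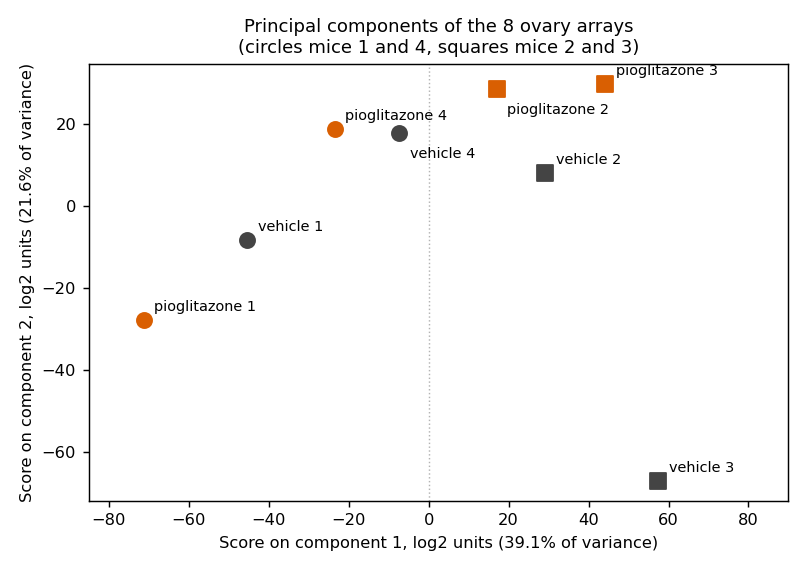
Scores of the 8 arrays on the first and second principal components of log2 values (log2 units), with circles for mice 1 and 4, squares for mice 2 and 3, grey for vehicle and orange for pioglitazone. The sets lie on either side of 0 on the first component, with vehicle mouse 4 at -7.4 and pioglitazone mouse 2 at 17.0, and vehicle mouse 3 lies alone at -67.1 on the second.

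Of 30897 probes tested, 681 (2.20%) did not overlap between the sets and differed by at least 1 on the log2 scale with treatment as a covariate. Of these, 278 (0.900%) were higher in mice 1 and 4 and 403 (1.30%) were higher in mice 2 and 3. With cyclic loess normalization the split was 200 and 466. Without the size limit, 2430 probes (7.86%) were higher in mice 1 and 4 and 1267 (4.10%) were higher in mice 2 and 3 with no overlap. A name was available for 146 of the 278 probes and for 355 of the 403. Leaving out 1 array eases the demand for no overlap. Without vehicle mouse 4 the total was 1079 and without pioglitazone mouse 2 it was 1033, the mice on either side of the boundary. It was also 958 without pioglitazone mouse 4, 947 without vehicle mouse 2 and 852 without vehicle mouse 3. Without vehicle mouse 1, pioglitazone mouse 3 or pioglitazone mouse 1 it was 623, 627 and 645.

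The set markers did not move as a block. Akr1c18, the luteal 20-alpha-hydroxysteroid dehydrogenase that inactivates progesterone, was at 0.674 and 1.62 in vehicle mice 1 and 4 and at 0.578 and 0.91 in pioglitazone mice 1 and 4. It was at 36.2 and 12.8 in vehicle mice 2 and 3 and at 11.6 and 5.27 in pioglitazone mice 2 and 3. All 4 mice of the second set lay above all 4 of the first, with a log2 difference (mice 1 and 4 minus mice 2 and 3, here and below) of -3.90 (SE 0.44), which was -4.36 between the vehicle mice and -3.43 between the pioglitazone mice. This was the probe with the largest difference of the genes named here.

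Cyp17a1, which makes androgens in theca cells, had the opposite order. Its values were 297 and 170 in vehicle mice 1 and 4, 228 and 77.9 in pioglitazone mice 1 and 4, 17.7 and 7.17 in vehicle mice 2 and 3, and 75.6 and 9.07 in pioglitazone mice 2 and 3. The sets did not overlap, but pioglitazone mouse 4 (77.9) and pioglitazone mouse 2 (75.6) nearly touched. The log2 difference was 3.33 (SE 0.72), 4.32 in the vehicle mice and 2.35 in the pioglitazone mice.

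The genes for the start of progesterone synthesis overlapped between the sets. Star, which carries cholesterol into the mitochondrion, was at 22.8, 10.3, 6.4 and 7.08 in mice 1 and 4 (vehicle 1 and 4, then pioglitazone 1 and 4) and at 36.7, 40.4, 14.2 and 39.6 in mice 2 and 3 (vehicle 2 and 3, then pioglitazone 2 and 3). Pioglitazone mouse 2 lay below vehicle mouse 1, and the log2 difference was -1.57 (SE 0.35). Cyp11a1, the side-chain cleavage enzyme, was at 30.0, 46.1, 10.7 and 23.7 in mice 1 and 4 and at 67.6, 68.2, 41.7 and 59.4 in mice 2 and 3, with a log2 difference of -1.25 (SE 0.29). Here too pioglitazone mouse 2 was the lowest of its set and lay below vehicle mouse 4.

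Hsd3b1, which makes progesterone from pregnenolone, averaged 183 ± 47.3 (SD, n = 4) in mice 1 and 4 and 213 ± 30.3 (SD, n = 4) in mice 2 and 3, a log2 difference of -0.25 (SE 0.20) with overlap. Fst, the activin-binding protein of granulosa cells, was at 2.1, 3.11, 2.73 and 5.82 in mice 1 and 4 and at 3.76, 2.62, 6.39 and 3.92 in mice 2 and 3. It overlapped widely, with a log2 difference of -0.31 (SE 0.28), in the direction of the luteal genes and opposite to Cyp17a1. Of the 6 markers, Akr1c18 and Cyp17a1 separated the sets, Star and Cyp11a1 had lower means in mice 1 and 4 with overlap, and Hsd3b1 and Fst hardly differed, so the sets are called by their mouse numbers.

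**Figure D2:**
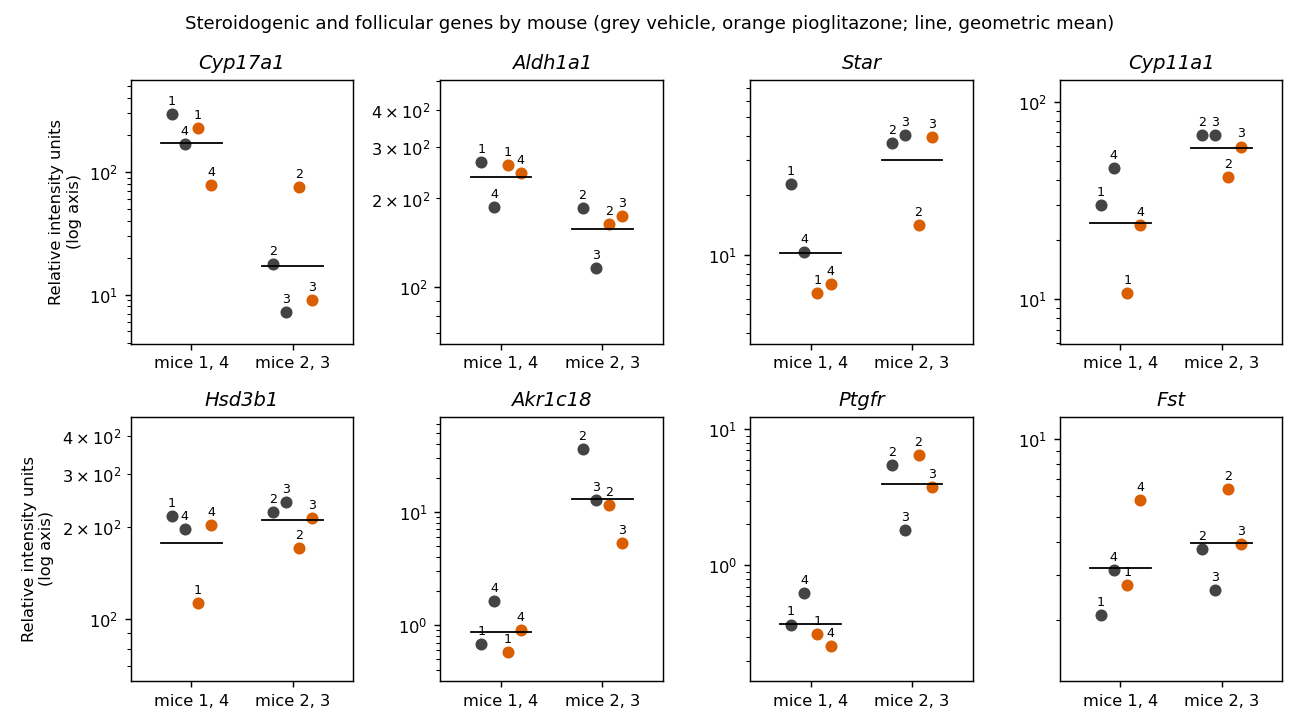
Relative intensity units (log axis) of 8 genes in each mouse, with grey points for vehicle, orange points for pioglitazone, mouse numbers above the points and lines at the geometric mean of each set. Akr1c18, Ptgfr, Cyp17a1 and Aldh1a1 do not overlap between the sets, whereas Star, Cyp11a1, Hsd3b1 and Fst do.

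Of 17 genes on a list for luteal cells 13 were tested, and 11 of them had lower values in mice 1 and 4, 4 without overlap. Their median log2 difference was -1.25, against 0.04 over 16182 genes by their brightest probe, of which 893 (5.52%) were higher in mice 2 and 3 and 1146 (7.08%) higher in mice 1 and 4 without overlap. Lhcgr, Prlr, Fdxr and Cdkn1b were not analysed here. Beside Akr1c18 the 4 were Ptgfr, Sgk1 and Sfrp4.

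Ptgfr, the receptor for prostaglandin F2α, was at 0.368, 0.632, 0.315 and 0.255 in mice 1 and 4 and at 5.43, 1.81, 6.48 and 3.78 in mice 2 and 3, a log2 difference of -3.41 (SE 0.42). The highest value in mice 1 and 4, in vehicle mouse 4, lay well below the lowest in mice 2 and 3, in vehicle mouse 3. A further Ptgfr probe was at 1.14, 1.36, 1.25 and 1.29 in mice 1 and 4 and at 3.05, 2.16, 2.76 and 2.27 in mice 2 and 3. It had the same order with no overlap and a smaller difference of -1.01 (SE 0.16).

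Sfrp4, a secreted Wnt antagonist, ranged from 3.1 to 5.55 in mice 1 and 4 and from 16.5 to 39.4 in mice 2 and 3, with a log2 difference of -2.35 (SE 0.30). Sgk1, a kinase that responds to hormones, ranged from 1.05 to 2.28 and from 5.0 to 15.5, with a difference of -2.55 (SE 0.36). Timp1, an inhibitor of matrix proteases, had a difference of -1.38 (SE 0.40), Cdkn1a, a cell cycle inhibitor, of -1.16 (SE 0.39), and Scarb1, the HDL receptor, of -0.78 (SE 0.32), all with overlap. Fdx1, the electron donor of Cyp11a1, was at 0.11 (SE 0.22).

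Akr1c20, an aldo-keto reductase related to Akr1c18, was at 0.283, 0.337, 0.258 and 0.352 in mice 1 and 4 and at 5.06, 1.83, 1.86 and 0.949 in mice 2 and 3, a log2 difference of -2.72 (SE 0.38). The order of the 4 mice of the second set was close to that for Akr1c18, with vehicle mouse 2 highest and pioglitazone mouse 3 lowest in both. Whether RNA of one gene hybridised to the probe of the other was not tested.

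On the progesterone synthesis list, 10 of 13 genes were tested and the median was -0.37. Without overlap, Akr1c18 was lower and Stard3 higher in mice 1 and 4, beside 5.52% and 7.08% of all genes. Stard3, a cholesterol transporter of late endosomes, had a difference of 0.51 (SE 0.19). Cholesterol synthesis stood at a median of 0.02 over 19 genes tested. On that list Sqle, squalene epoxidase, was at 0.141, 0.197, 0.164 and 0.107 in mice 1 and 4, all under the limit of sensitivity, and between 0.297 and 0.487 in mice 2 and 3. Pmvk, phosphomevalonate kinase, had the opposite order, with a difference of 0.52 (SE 0.17). No gene of cholesterol uptake, storage and efflux (10 tested, median -0.32) was free of overlap.

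Promoters are shown for 3 genes with large differences, Akr1c18 and Adamts1 (higher in mice 2 and 3) and Serpina5 (higher in mice 1 and 4), to set the data beside the sequence upstream of them. Each line gives the 250 bases before the start, 5′ to 3′ on the strand of the gene, as in RefSeq (GRCm38.p6), and capitals mark a match to a searched motif. The places are chr13:4150647-4150896 on the minus strand for Akr1c18, chr16:85803114-85803363 on the minus strand for Adamts1, and chr12:104100863-104101112 on the plus strand for Serpina5.
Akr1c18: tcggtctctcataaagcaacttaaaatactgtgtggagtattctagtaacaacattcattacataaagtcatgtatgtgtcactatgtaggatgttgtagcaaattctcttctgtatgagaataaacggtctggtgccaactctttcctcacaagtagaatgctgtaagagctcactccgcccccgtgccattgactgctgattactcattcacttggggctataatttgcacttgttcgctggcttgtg
Adamts1: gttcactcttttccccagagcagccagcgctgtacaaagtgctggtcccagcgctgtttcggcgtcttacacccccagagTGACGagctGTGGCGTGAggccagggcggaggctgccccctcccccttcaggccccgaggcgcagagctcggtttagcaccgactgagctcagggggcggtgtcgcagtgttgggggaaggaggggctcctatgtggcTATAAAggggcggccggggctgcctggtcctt
Serpina5: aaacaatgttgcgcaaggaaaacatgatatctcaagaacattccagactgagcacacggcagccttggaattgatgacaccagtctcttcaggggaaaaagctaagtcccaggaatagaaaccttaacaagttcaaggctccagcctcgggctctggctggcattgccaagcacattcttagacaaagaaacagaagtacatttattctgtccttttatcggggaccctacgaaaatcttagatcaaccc

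The motifs were searched on both strands, and the shares given with them are those of 32851 promoters of this length in the table. They were the TATA box (TATAAA, found in 12.4% of them), the first letters of the cAMP response element (TGACG, in 17.8%, which lie within the whole element, TGACGTCA, in 1.55%), the sterol response element (TCACNCCAC, in 1.05%), the site of SF-1 and LRH-1 (AAGGTCA, in 4.08%), the AP-1 site (TGANTCA, in 6.75%) and both forms of the GATA site (AGATAA, in 9.99%, and TGATAA, in 7.94%). Adamts1 had a TATA box at 32 to 27 bases before its start, the first letters of the cAMP response element at 170 to 166 and a match to the sterol response element at 161 to 153. None of these letters were in the windows of Akr1c18 and Serpina5. The shares were also taken in genes with 1 promoter, 74 that were higher in mice 1 and 4 and 188 that were higher in mice 2 and 3, by at least 1 on the log2 scale without overlap, and all such genes. They were, in that order, 4.05%, 3.19% and 4.05% for the SF-1 and LRH-1 site, 13.5%, 25.5% and 17.5% for the first letters of the cAMP response element, and 0.00%, 1.06% and 1.61% for the whole of it. The TATA box was in 8.11%, 8.51% and 13.6%, the first form of the GATA site in 8.11%, 5.32% and 10.4%, and the other in 1.35%, 3.19% and 8.50%. The sterol response element was in 1.35%, 1.06% and 0.993%, and the AP-1 site in 6.76%, 5.85% and 6.96%. These shares are a description, in which a match is not a binding site.

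Of 12 theca genes tested of 13, Cyp17a1 and Aldh1a1 were higher in mice 1 and 4 without overlap, beside 7.08% of all genes. Aldh1a1, which makes retinoic acid, was at 266, 187, 260 and 244 in mice 1 and 4 and at 185, 116, 164 and 174 in mice 2 and 3, a log2 difference of 0.59 (SE 0.19). Vehicle mouse 4 and vehicle mouse 2 differed little. Ptch1, the hedgehog receptor, and Nr2f2, a nuclear receptor of theca and stroma, each had a difference of 0.61 (SE 0.25 and 0.23) with overlap. Dimmer Nr2f2 probes differed by 1.13, without overlap, and by 0.89, and the theca gene Insl3 was not analysed here. The median over the list was 0.10, and -0.03 with quantile and -0.04 with cyclic loess normalization.

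Follicular granulosa genes hardly separated the sets. Over 15 of 20 genes tested the median was 0.07. Without overlap, 1 was higher and 1 lower in mice 1 and 4, beside 7.08% and 5.52% of all genes. Kitl, the ligand through which granulosa cells act on oocytes and theca, was at 49.6, 34.9, 46.6 and 31.4 in mice 1 and 4 and at 21.7, 11.5, 27.6 and 26.0 in mice 2 and 3, a log2 difference of 0.96 (SE 0.28) with no overlap. Igf1 went the other way, from 8.2 to 9.04 in mice 1 and 4 and from 10.3 to 12.7 in mice 2 and 3, with a difference of -0.37 (SE 0.13). The receptor genes Fshr (0.16, SE 0.20) and Amhr2 (0.46, SE 0.19), and Inha, the alpha subunit of inhibin (0.07, SE 0.33), overlapped, and Cyp19a1, the aromatase, was not analysed here.

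Oocyte genes were somewhat higher in mice 1 and 4. Of 20 tested of 22, 16 were higher, 5 of them without overlap, and the median was 0.22. Of all 16182 genes, 8863 were higher in mice 1 and 4, and 7.08% were so without overlap. The zona pellucida gene Zp2 was at 12.1, 13.9, 14.5 and 12.6 in mice 1 and 4 and at 7.41, 3.7, 9.88 and 8.37 in mice 2 and 3, a log2 difference of 0.94 (SE 0.25). Zp3, Dppa3, Tcl1 and Npm2 had differences from 0.54 to 0.58 with no overlap. The oocyte growth factors Gdf9 (0.01, SE 0.15) and Bmp15 (-0.77, SE 0.46) overlapped, and the summed level of the list was 152 to 185 in mice 1 and 4 and 116 to 145 in mice 2 and 3. Bright genes weigh most in that sum. By the median log2 value of the list in each array, with every gene centred on its mean, the sets overlapped. Pioglitazone mouse 4 was at -0.0029 and pioglitazone mouse 2 at 0.0193.

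Genes of ovulation and matrix remodelling were led by Adamts1, a secreted protease that the progesterone receptor induces in the ovulating follicle. It was at 0.335, 0.8, 0.24 and 0.225 in mice 1 and 4 and at 6.3, 3.56, 1.03 and 4.08 in mice 2 and 3, with pioglitazone mouse 2 the lowest of its set and vehicle mouse 4 the highest of the other. The log2 difference was -3.17 (SE 0.44), and -3.19 and -3.14 within the vehicle and pioglitazone mice. Other cumulus and ovulation genes were not uniform, with Cebpb at -0.82 (SE 0.14) and Il6 at -0.71 (SE 0.20) free of overlap, Edn2 at -1.74 (SE 0.58) with overlap, and Ptx3 at 0.89 (SE 0.34) and Pgr at 0.74 (SE 0.77), both with overlap, on the other side. Of 14 genes tested, 3 were lower in mice 1 and 4 without overlap (5.52% of all genes). The median was -0.31, and -0.02 without vehicle mouse 2.

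Among matrix proteases and inhibitors, 14 of 17 genes tested were lower in mice 1 and 4, 4 of them without overlap (5.52% of all genes), with a median of -0.45. Plat, tissue plasminogen activator, was at 0.158, 0.604, 0.0755 and 0.207 in mice 1 and 4 and at 1.38, 0.613, 1.08 and 1.6 in mice 2 and 3, a difference of -2.48 (SE 0.57). Vehicle mice 4 and 3 were almost level. Mmp19, which is expressed by follicles and corpora lutea, was at -2.18 (SE 0.36), with 0.402 in pioglitazone mouse 2 against 0.277 in both vehicle mice of the first set, and Mmp23 was at -0.47 (SE 0.17). For Mmp19, pioglitazone mice 1 and 4 were under the limit of sensitivity, at 0.0677 and 0.163.

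Stromal and smooth muscle genes were lower in mice 1 and 4 in 14 of 16 cases, 3 of them without overlap (5.52% of all genes), and the median was -0.33. Col1a1, a chain of type I collagen, was at 0.793, 2.51, 0.508 and 1.13 in mice 1 and 4 and at 4.15, 11.1, 4.59 and 9.13 in mice 2 and 3, a log2 difference of -2.68 (SE 0.48). Its partner chain Col1a2 averaged 10.9 in mice 1 and 4 and 20.1 in mice 2 and 3 with overlap, and Col3a1 had a log2 difference of -0.44 (SE 0.21). Des, the muscle intermediate filament, was at -1.68 (SE 0.28), from 1.1 to 2.35 in mice 1 and 4 and from 3.19 to 8.88 in mice 2 and 3. Acta2, smooth muscle actin, had a difference of only -0.21 (SE 0.15).

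In the IGF system, 10 of 14 genes were lower in mice 1 and 4, 5 without overlap (5.52% of all genes), and the median was -0.37. They were the ligand Igf1, the receptor Igf2r (-0.77, SE 0.17) and the binding proteins Igfbp4 (-1.83, SE 0.45), Igfbp3 (-0.81, SE 0.18) and Igfbp6 (-0.52, SE 0.17). Igfbp3 was near the limit of sensitivity in mice 1 and 4, at 0.196 to 0.287. Igfbp4 was lowest in pioglitazone mouse 1 and ranged up to 3.5 in mice 1 and 4 and from 4.13 to 10.5 in mice 2 and 3, and a dimmer Igfbp4 probe differed by -0.40 (SE 0.18) with overlap. In the activin, inhibin and BMP list (18 tested, median -0.13), the type I receptors Bmpr1a (-1.24, SE 0.20) and Acvr1 (-1.15, SE 0.27) and the signal transducer Smad1 (-0.60, SE 0.18) were lower in mice 1 and 4 without overlap. The type II receptor Acvr2b was higher without overlap (0.51, SE 0.15). Bmpr1a was dim, at 0.363 to 0.488 in mice 2 and 3. In mice 1 and 4 it was under the limit of sensitivity in all but vehicle mouse 4 (0.291). Of all genes, 5.52% were lower and 7.08% higher in mice 1 and 4 without overlap.

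Immediate early genes, which respond within minutes to hormones and other stimuli, were lower in mice 1 and 4 in 9 of 11 tested, 6 of them without overlap (5.52% of all genes), with a median of -0.55. Nr4a1, an orphan nuclear receptor, was at 1.22, 1.74, 1.67 and 2.25 in mice 1 and 4 and at 3.51, 4.06, 4.41 and 3.34 in mice 2 and 3, a log2 difference of -1.18 (SE 0.19). The others were Btg2, Dusp1, Atf3, Ier2 and Zfp36, from -1.05 to -0.55, whereas Egr1 (-0.24, SE 0.26), Fosb (-0.06, SE 0.14) and Jun (0.28, SE 0.36) overlapped. Fos was not analysed here.

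**Figure D3:**
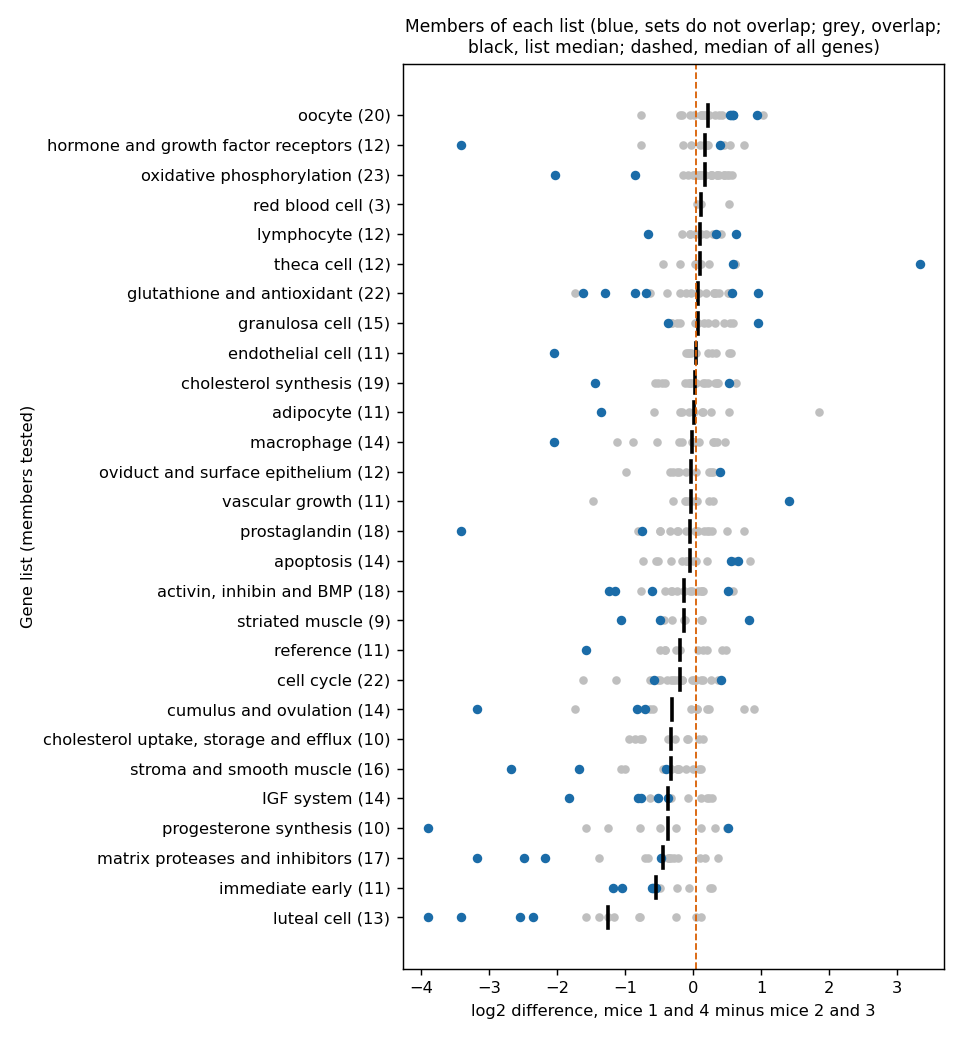
Log2 difference, mice 1 and 4 minus mice 2 and 3, of every tested member of 28 gene lists, with blue points where the sets do not overlap, grey points where they do, a black bar at each list's median and a dashed line at the median of all genes (0.04). The luteal list lies farthest from the dashed line, at -1.25, and the lists of immediate early genes (-0.55) and matrix proteases (-0.45) come next.

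Lists for other cells of the ovary and for tissue around it lay near 0. The median was 0.04 for endothelial cells (11 tested), -0.01 for macrophages (14 tested), 0.10 for lymphocytes (12 tested), -0.03 for oviduct and surface epithelium (12 tested), -0.14 for striated muscle (9 tested) and 0.01 for adipocytes (11 tested). Of red blood cell genes 3 of 11 were tested, with a median of 0.12, and the globin genes were not analysed here. The filter on dim probes left no tested member under the limit of sensitivity in all 8 arrays, so that says nothing of how well these lists were measured. The part of these cells in the differences between the sets was not tested.

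Single members of these lists, and of that for vascular growth, were free of overlap. Lower in mice 1 and 4 were 1 of 11 endothelial, 1 of 14 macrophage and 1 of 11 adipocyte genes (5.52% of all genes). Higher were 1 of 11 vascular growth genes and 1 of 12 of oviduct and surface epithelium (7.08% of all genes). The lymphocyte list (12 tested) had 2 higher and 1 lower, and the striated muscle list (9 tested) had 1 higher and 2 lower. Pecam1, the endothelial adhesion molecule CD31, was at 0.458, 0.712, 0.173 and 0.327 in mice 1 and 4 and at 1.56, 1.39, 1.09 and 2.33 in mice 2 and 3, a log2 difference of -2.05 (SE 0.37), while the endothelial genes Kdr (-0.06, SE 0.18) and Emcn (-0.08, SE 0.17) hardly differed. Lgmn, the lysosomal protease legumain, ranged from 1.23 to 2.75 in mice 1 and 4 and from 7.23 to 10.6 in mice 2 and 3, a difference of -2.05 (SE 0.24), beside C1qb at 0.00 (SE 0.23). Vegfc, a lymphatic growth factor, was higher in mice 1 and 4 (3.18 to 5.35 against 0.853 to 2.49), by 1.41 (SE 0.31). The summed level of the adipocyte list spanned 41.1 to 167 in mice 1 and 4 and 59.2 to 96.8 in mice 2 and 3, so that the range of the first set held that of the second.

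In the glutathione and antioxidant list 2 of 22 genes tested were higher in mice 1 and 4 (7.08% of all genes) and 4 in mice 2 and 3 (5.52% of all genes) without overlap, with a median of 0.07 that turned to -0.07 with quantile and -0.09 with cyclic loess normalization. Gsta4, a transferase for lipid peroxidation products, ranged from 48.1 to 72.6 in mice 1 and 4 and from 21.2 to 35.5 in mice 2 and 3 (0.96, SE 0.21). Hmox1, haem oxygenase, was at 14.8, 10.4, 2.78 and 14.1 in mice 1 and 4 and from 22.4 to 35.2 in mice 2 and 3 (-1.62, SE 0.45). Gpx3, the secreted peroxidase, was at -0.86 (SE 0.18), and Txnrd1, thioredoxin reductase, at -1.29 (SE 0.38).

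Genes of oxidative phosphorylation were higher in mice 1 and 4 in 19 of 23 cases by small amounts (median 0.17, and 0.00 with cyclic loess normalization), with overlap in all of them. The 2 genes without overlap, Atp5b and Sdhc, were both lower in mice 1 and 4, as were 5.52% of all genes. Atp5b, the beta subunit of ATP synthase, was at 4.99, 12.5, 0.695 and 5.02 in mice 1 and 4 and from 14.4 to 17.2 in mice 2 and 3, with a log2 difference of -2.03 (SE 0.65). Pioglitazone mouse 1 was far below the others. Sdhc, a subunit of succinate dehydrogenase, had a difference of -0.86 (SE 0.27). The remaining lists were near the median of all genes or mixed, at -0.20 for the cell cycle, 0.18 for hormone and growth factor receptors, -0.03 for vascular growth, -0.04 for prostaglandin genes and -0.05 for apoptosis. Of reference genes, Actb (0.07, SE 0.16) and Ppia (0.20, SE 0.17) overlapped, and Ywhaz was at -1.58 (SE 0.31) without overlap.

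The genes with the largest differences in favour of mice 1 and 4, after Cyp17a1, were Oca2, Serpina5 and Gpha2. Oca2, a melanosomal transporter, was at 9.79, 7.09, 5.08 and 7.73 in mice 1 and 4 and at 0.817, 0.499, 3.78 and 0.98 in mice 2 and 3, a log2 difference of 2.70 (SE 0.52). Serpina5, the protein C inhibitor, was at 38.9, 33.5, 17.6 and 40.8 in mice 1 and 4 and at 2.23, 3.28, 15.4 and 6.09 in mice 2 and 3 (2.60, SE 0.51). In both genes pioglitazone mouse 2 came close to pioglitazone mouse 1. Gpha2, the alpha subunit of thyrostimulin, was cleaner, from 3.4 to 5.97 in mice 1 and 4 and from 0.654 to 1.01 in mice 2 and 3 (2.47, SE 0.22).

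The other genes of this direction were Ngef (2.40), Sftpc, surfactant protein C (2.39), Tulp2 (2.28), Gm34166 (2.23), Trib2, a pseudokinase (1.98), Mug1, a protease inhibitor (1.95), Ms4a10 (1.94) and Bpifb5 (1.94). In all 12 genes named for this direction pioglitazone mouse 2 was the highest of mice 2 and 3. Vehicle mouse 3 was the lowest of the set in 8 of the 12 and vehicle mouse 2 in 4.

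The genes with the largest differences in favour of mice 2 and 3 were Akr1c18, Ptgfr, Adamts1, Akr1c20 and Col1a1, given above, and 7 others. Ctnnb1, beta-catenin, was at 0.4, 1.29, 0.268 and 0.45 in mice 1 and 4 and at 4.67, 3.34, 3.62 and 6.46 in mice 2 and 3, a log2 difference of -3.13 (SE 0.43). Idh1, the cytosolic isocitrate dehydrogenase, was at 3.44, 8.32, 1.38 and 2.92 and at 20.0, 24.4, 18.3 and 37.1 (-2.87, SE 0.45). Pioglitazone mouse 1 was the lowest and vehicle mouse 4 the highest of mice 1 and 4 in both.

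Acly, which makes cytosolic acetyl-CoA, had a difference of -2.72 (SE 0.64), with vehicle mouse 4 at 2.03 close to pioglitazone mouse 2 at 2.49. Gbp2, an interferon-induced GTPase (-3.08, SE 0.64), Tgfbi, a matrix protein induced by TGF-beta (-3.01, SE 0.43), and Ltbp1, which binds latent TGF-beta (-2.76, SE 0.56), were under the limit of sensitivity in part of mice 1 and 4, and Gbp2 in pioglitazone mouse 1 (0.0234) was set to the floor of 0.05. Onecut2, a transcription factor, ranged from 0.416 to 0.63 in mice 1 and 4 and from 1.93 to 6.34 in mice 2 and 3 (-2.80, SE 0.32). Of its other probes, one had overlap, with a difference of -0.62 (SE 0.16), and one was at 0.0327 to 0.0791 in mice 1 and 4, all under the limit of sensitivity, and at 0.319 to 1.16 in mice 2 and 3.

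**Figure D4:**
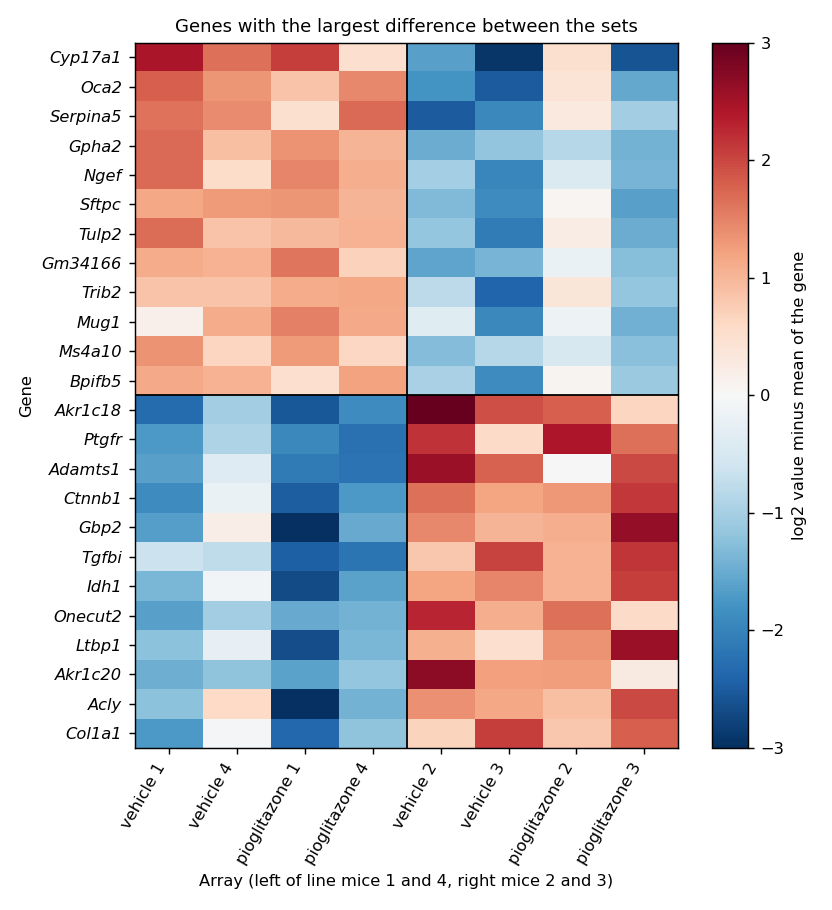
Log2 value minus the gene's mean over the 8 arrays (colour, log2 units) for the 12 genes that differed most toward each set, with arrays in columns and the sets on either side of the vertical line. Pioglitazone mouse 2 is the palest of mice 2 and 3 for most genes in the upper block, and vehicle mouse 4 is the palest of mice 1 and 4 for most genes in the lower block.

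The mice did not contribute equally. Of the 403 probes higher in mice 2 and 3, pioglitazone mouse 1 was the lowest array in 265 (65.8%), vehicle mouse 1 in 72 (17.9%), pioglitazone mouse 4 in 55 (13.6%) and vehicle mouse 4 in 11 (2.73%). Of the same 12 genes as above, pioglitazone mouse 1 was the lowest of its set in 9 and vehicle mouse 4 the highest in 10. Of the 278 probes higher in mice 1 and 4, vehicle mouse 3 was the lowest array in 156 (56.1%).

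Other probes for the same gene mostly had smaller differences. Pairing each of 74 probes higher in mice 2 and 3 with each other tested probe of its gene gave 93 pairings, in which a probe can recur. The other probe had the same sign in 59. It was higher in mice 2 and 3 without overlap in 18 (4.10% of all probes) and lower without overlap in 3 (7.86% of all probes). In 10 of the 18 the other probe had itself passed the size limit, so both were counted against each other. The median log2 difference was -0.09 for the other probes against -1.39 for the 74. In both directions the first probes were picked for a large difference and the others were not, a choice that favours smaller medians of the others. How much of the gap came from that choice was not tested. For 40 probes higher in mice 1 and 4 there were 45 such pairings. The other probe had the same sign in 29, was higher without overlap in 8 (in 2 of them also past the size limit) and lower without overlap in 0. The medians were 0.20 and 1.22. Probes agreed in direction and without overlap for Ptgfr. They did not for Trib2 (1.98 and -0.22), Nsun2 (-2.47 and 0.86) and Odc1 (-2.01 and 0.46), the last pair of genes having been chosen after their values were seen. The array positions of the probes along their transcripts are not used here, and the reason for the disagreement was not tested.

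**Figure D5:**
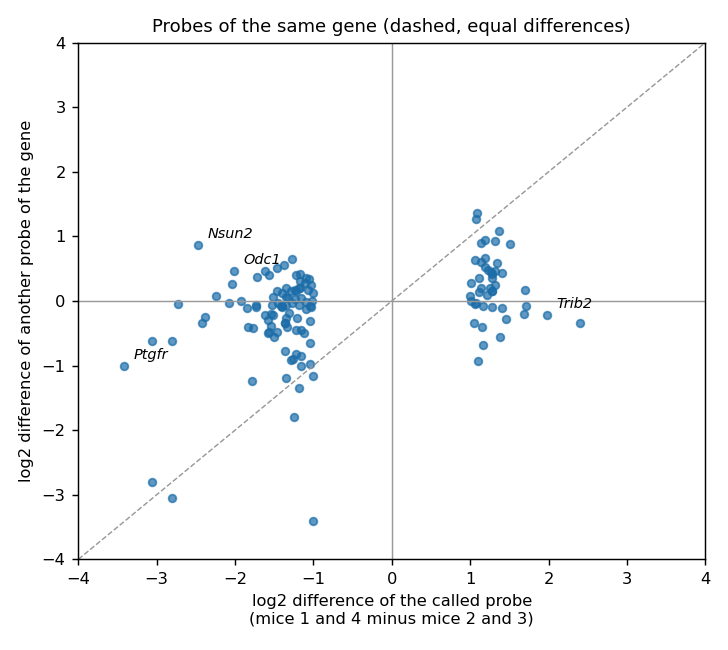
Log2 difference, mice 1 and 4 minus mice 2 and 3, of probes that passed the size limit without overlap (horizontal axis) against other tested probes of the same gene (vertical axis), with a dashed line at equal differences. Most points lie near 0 on the vertical axis, with medians of 0.20 on the right and -0.09 on the left, and Ptgfr is among the few at the lower left.

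The difference between the sets was seen side by side in both treatments, since across the 30897 probes the difference in the vehicle mice and that in the pioglitazone mice correlated at r = 0.43. Probes are not independent and the sets were chosen on both comparisons, so the value is a description. The interaction of set and treatment is the difference between those comparisons, so the choice of sets bore on it too and favoured a small one. It gave 0 probes (0%) under an adjusted p of 0.05 in limma, with 1598 (5.17%) at an unadjusted p under 0.05 and 2977 with the replicate number as a random block. The smallest adjusted p was 0.841, and the median SE of the interaction was 0.362. Among the genes named, the set difference in pioglitazone mice less that in vehicle mice was largest in size for Ltbp1 (-2.45, SE 0.79) and Acly (-2.28, SE 1.07), each with an adjusted p of 0.841 in limma. For Serpina5 it was -2.27 (SE 0.72).

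Treatment, tested in limma with the set as a covariate, passed an adjusted p of 0.05 for 0 of 30897 probes (0%). At an unadjusted p under 0.05 there were 2207 (7.14%), 896 higher (2.90%) and 1311 lower (4.24%) with pioglitazone, and the smallest adjusted p was 0.52. Without the set as a covariate 1662 probes were under an unadjusted 0.05, and the test named in the methods gave 2130 and 0 after adjustment. The covariate was chosen in these arrays for its large share of the variance. The spread left with it in the fit may therefore be too small, and the unadjusted count of 2207 too high. The log2 difference of pioglitazone minus vehicle was -0.94 (SE 0.35) for Star and -0.83 (SE 0.29) for Cyp11a1, both with an adjusted p of 0.675 in limma. For Akr1c18 the treatment difference was -0.99 (SE 0.44, limma adjusted p 0.675) and for Cyp17a1 it was 0.23 (SE 0.72, limma adjusted p 0.944). A p that misses the threshold does not show that the treatments act alike.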

How the data were processed

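Ovarian cRNA of 8 mice was hybridised to CodeLink Whole Mouse Genome arrays, 1 ovary sample per array. Per the labels and the methods, the authors scanned the slides, corrected the background in CodeLink software and normalized in GeneSpring, and the deposited values are linear intensities relative to the median of each array. The methods also describe a division of each gene by its median, which the deposited intensities do not show, since probes keep levels far from 1. The deposited medians were 1.007 to 1.014, 82.5% to 83.9% of probes were at 0.2 or more, and 47 to 211 spots per array were missing (coded -9999), without following the sets. Correlations between arrays ran from 0.937 to 0.988. The number of arrays limits the precision.

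Each array was divided by its median, set to a floor of 0.05 and taken to log2, and probes with a mean of at least 0.2 in a set or treatment group were kept (30897 of 36227). Of all probes, 21615 had 1 gene name in the platform annotation, 681 had several and 13931 had none, and no probe with several was named. limma 3.58.1 (R 4.3.3) fitted set and treatment, and set, treatment and their interaction, with two-sided tests and Benjamini-Hochberg adjustment over all tested probes. The scripts were tested on simulated data. The sets, gene lists and tests were chosen with earlier results of these data known, and nothing here is independent support. Lists used the brightest probe of a gene. Named were the 6 markers, the 12 genes that differed most toward each set (no overlap, and no array of the higher set below 0.5), and up to 4 members of each list without overlap, with other members and probes added as values. p-values measure only the spread between these mice.

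Mice of the same number deviated together from their treatment means (r = 0.511, 0.183, 0.273 and 0.229 for numbers 1 to 4), so the number was taken as a block in an alternative. The highest r of each vehicle mouse with a pioglitazone mouse of another number was 0.16, 0.367, 0.0516 and 0.104. For number 2 it was above that of the same number. With the set difference removed, r for mice of the same number was -0.00671, -0.0446, -0.323 and 0.154. The alternatives were other floors, filters, scalings and weights, the block, and leaving out each array. No deposited column was left out. Some probes had no gene name and some promoters were not used here.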

Additional observations from a re-analysis of the deposited data

Results flagged for a closer look

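In 174 groups of 4 mice of a set, across the genes named, the highest or lowest mouse lay farther from the other 3 than Dixon's 95% limit in 9 cases (5.17%), and chance gives about 1 in 20. In mice 2 and 3, pioglitazone mouse 2 was low for Star, at 14.2 against 36.7, 40.4 and 39.6, and low for Npc2, a cholesterol-binding protein of lysosomes, at 34.6. The same mouse was high for Tnnt3, a muscle troponin, at 0.32, and pioglitazone mouse 3 was low for Gsta4, at 21.2. In mice 1 and 4, pioglitazone mouse 1 was low for Hsd3b1, at 113 against 218, 197 and 203, and high for Zp3, at 62.8, and for Acta1, skeletal actin, at 0.251. Vehicle mouse 4 was low for Stard3, at 7.28, and vehicle mouse 1 was low for Btg2, at 0.088, which is under the limit of sensitivity.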

How the results depend on the processing

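None of the 79 named probes without overlap changed sign under 19 other settings (1487 values), and 37 of these values had overlap. These probes were picked for their lack of overlap, so leaving out an array could change neither sign nor overlap. The count is therefore no support for the differences. With at least 0.2 in every array, 451 probes passed in total and 250 were higher in mice 2 and 3. Leaving out 1 array gave 623 to 1079 in total, 224 to 478 higher in mice 1 and 4, and 350 to 720 higher in mice 2 and 3. The first direction rose to 437, 471 and 478 without vehicle mouse 2, pioglitazone mouse 2 and pioglitazone mouse 4, and the second to 720 without vehicle mouse 4. The treatment test had 1 probe past adjustment and 3522 before it with array weights, and 0 to 1 (1 without vehicle mouse 3) and 1182 to 3353 on leaving out 1 array, with 1182 without vehicle mouse 1, 1196 without pioglitazone mouse 3 and 3353 without pioglitazone mouse 1. The interaction had 0 to 2 (2 without pioglitazone mouse 2 or vehicle mouse 4) and 995 to 4450, with 995 without pioglitazone mouse 2, 2765 without pioglitazone mouse 4 and 4450 without vehicle mouse 2. With the replicate block, 682 probes differed between the sets, 2590 were under an unadjusted 0.05 for treatment and 2977 for the interaction, with 0 past adjustment, and the block changed no other call. Of 531 list medians under other settings 28 moved beyond the spread between mice. Cyclic loess gave -0.54 for progesterone synthesis, -0.46 for stroma, -0.50 for the IGF system, -0.09 for glutathione genes and -0.28 for reference genes, and quantile normalization gave -0.41, -0.47, -0.07 and -0.27 for the last 4. Striated muscle was at -0.27 with array weights, the mean over probes gave -0.31 for it, 0.07 for reference genes and -0.08 for cumulus genes, and the filter of 0.2 in every array gave -0.59 for the last. Leaving out 1 array gave -0.49 to -0.30 for the IGF system, -0.47 to -0.02 for cumulus genes, -0.07 to 0.17 for granulosa cells, -0.18 to -0.04 for prostaglandin genes, -0.24 to 0.05 for reference genes, -0.30 to -0.11 for striated muscle and -0.39 to -0.25 for stroma. The luteal median stayed between -1.47 and -1.19. The causes were not tested. Signal near the limit of 0.2 leaves the size of differences open to the floor, and 4 mice a set limit the rest.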
